A study of Arabidopsis thaliana with 9 samples.

Results

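The calcium-dependent protein kinases (CPKs) of Arabidopsis thaliana, 34 genes, were read from the gene counts of 9 RNA-seq libraries of whole seedlings. The members were taken by gene identifier, and all 34 were among the 32678 gene rows. In icpk seedlings with KNO3, 12 of the 27 members with enough counts to test had lower transcript levels than in wild type with KNO3, and 1, CPK10, was higher, against 11.4% of all genes tested called lower and 11.3% higher. Of these 12, CPK30 and CPK32 are themselves mutated in icpk. In wild type, 1 of the 27, CPK29, was higher with KNO3 than with KCl, and no member was called lower, against 3.56% of all genes called higher and 2.39% lower.

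Each group held 3 libraries from 7-day-old seedlings, and each library came from about 10 pooled seedlings. The first group was icpk seedlings with 10 mM KNO3, the second was wild type with 10 mM KNO3, and the last was wild type with 10 mM KCl. Treatment lasted 15 min in every group. All seedlings had grown in constant light at 23 °C with 2.5 mM ammonium succinate, so the KCl seedlings were supplied with nitrogen too. The icpk line is a triple mutant of CPK10, CPK30 and CPK32 that carries CPK10(M141G)-DHA, a CPK10 form whose activity the compound 3MBiP can block. The protocol describes 10 µM 3MBiP for 2 min before treatment for this purpose, and which of the samples were given it is not recorded in the labels. The labels do not name the promoter of the CPK10(M141G) gene or the number of lines, and icpk with KCl was not analysed here. The effect of the mutations, of the carried gene and of the inhibitor therefore cannot be told apart, nor can an effect of genotype on the nitrate response be tested. Separate cultures for the replicates are not stated, so a p-value here reflects the spread of the samples sequenced, and that spread may be technical. RNA from whole seedlings also does not tell fewer cells of a type from less RNA per cell.

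A CPK joins a protein kinase domain, through an inhibitory junction, to a calmodulin-like domain with EF hands, the loops that bind calcium. Binding of calcium relieves the inhibition, so 1 protein both senses calcium and phosphorylates targets such as ion channels, NADPH oxidases and transcription factors. CPK10, CPK30 and CPK32 are known to phosphorylate NLP7, the transcription factor that starts the early nitrate response. The family is sorted by sequence into subgroups I to IV, and these 3 kinases belong to subgroup III.

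The M141G change in icpk lies at the gatekeeper residue of the ATP pocket, which decides whether a bulky inhibitor can enter. The coding bases around this codon are shown because they define the icpk line and because they mark how alike the kinases are at the site. Each run is 33 bases of the coding strand of the RefSeq model in TAIR10.1, and capitals mark the codon aligned with codon 141 of CPK10.
CPK10: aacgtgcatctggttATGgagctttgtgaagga
CPK30: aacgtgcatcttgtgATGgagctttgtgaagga
CPK32: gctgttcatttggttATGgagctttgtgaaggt
CPK29: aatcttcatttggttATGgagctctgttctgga
CPK28: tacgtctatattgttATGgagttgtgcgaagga
The codon is ATG, for methionine, in the reference of all 34 members. It is codon 137 in CPK30, 141 in CPK32, 190 in CPK29 and 140 in CPK28. Over the aligned coding sequence, CPK10 and CPK30 were identical at 84.9% of bases, CPK10 and CPK32 at 65.9%, and CPK30 and CPK32 at 65.3%. The closest pair of the family was CPK27 and CPK31, at 89.0%.

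Total gene counts ran between 5987352 and 19564785 per library, the lowest being wild type KCl replicate 3. In that library 80.5% of all records were reads placed at several sites, against 23.8% to 58.0% in the other 8, and 4.89% of its gene counts were organelle genes. Levels are given as CPM, the counts of a gene relative to the library's size after scaling by the TMM method. A count of 3, taken as the floor of detection, corresponded to 0.146 to 0.55 CPM. CPM compares 1 gene between libraries, and levels between genes are given as CPM per kilobase of exon.

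The 3 kinases changed in icpk were read first. CPK32 (AT3G57530) had 20.1, 25.1 and 18.8 CPM in icpk, against 199, 213 and 206 CPM in wild type with KNO3 and 137, 269 and 200.1 CPM with KCl. CPK30 (AT1G74740) had 3.74, 3.60 and 2.84 CPM in icpk, against 26.5, 28.7 and 27.4 CPM in wild type with KNO3 and 24.01, 28.2 and 23.6 CPM with KCl. All 3 icpk libraries were thus below all 6 wild type libraries for both genes, and both genes were still counted in icpk, with at least 231 reads per library for CPK32 and 41 for CPK30. The log2 difference between icpk and wild type with KNO3 was -3.27 ± 0.23 for CPK32 (SE; adjusted p = 6.42e-05 by the quasi-likelihood test of edgeR with Benjamini-Hochberg adjustment) and -3.02 ± 0.13 for CPK30 (adjusted p = 5.19e-06). The mean levels in icpk were 10.4% and 12.3% of wild type.

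CPK10 (AT1G18890) went the other way. It had 165, 166 and 149 CPM in icpk, against 88.3, 81.4 and 100.7 CPM in wild type with KNO3 and 61.9, 78.3 and 72.0 CPM with KCl. Every icpk library was above every wild type library, with a log2 difference of 0.83 ± 0.12 from wild type with KNO3 (adjusted p = 0.00147). Reads of the carried CPK10(M141G) gene and of the CPK10 locus fall in the same count and cannot be told apart. A neighbouring gene, AT1G18880, shares 21.1% of the 50-base words of CPK10 transcripts, and 44.8% are shared once AT1G05453, an overlapping gene with no row in the counts, is included; both lie on the opposite strand and the library kit does not mark strand. AT1G18880 was at 25.4 ± 5.4 CPM in icpk and 20.2 ± 3.3 CPM in wild type with KNO3 (SD, n = 3 each), a difference that was not called (edgeR adjusted p = 0.177). CPK30 and CPK32 share no 50-base word with another gene, but AT1G74730 overlaps the CPK30 gene on the opposite strand. AT1G74730 was at 156 ± 14 CPM in icpk and 115 ± 28 CPM in wild type with KNO3 (SD, n = 3 each). This difference was not called (edgeR adjusted p = 0.0825).

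**Figure D1:**
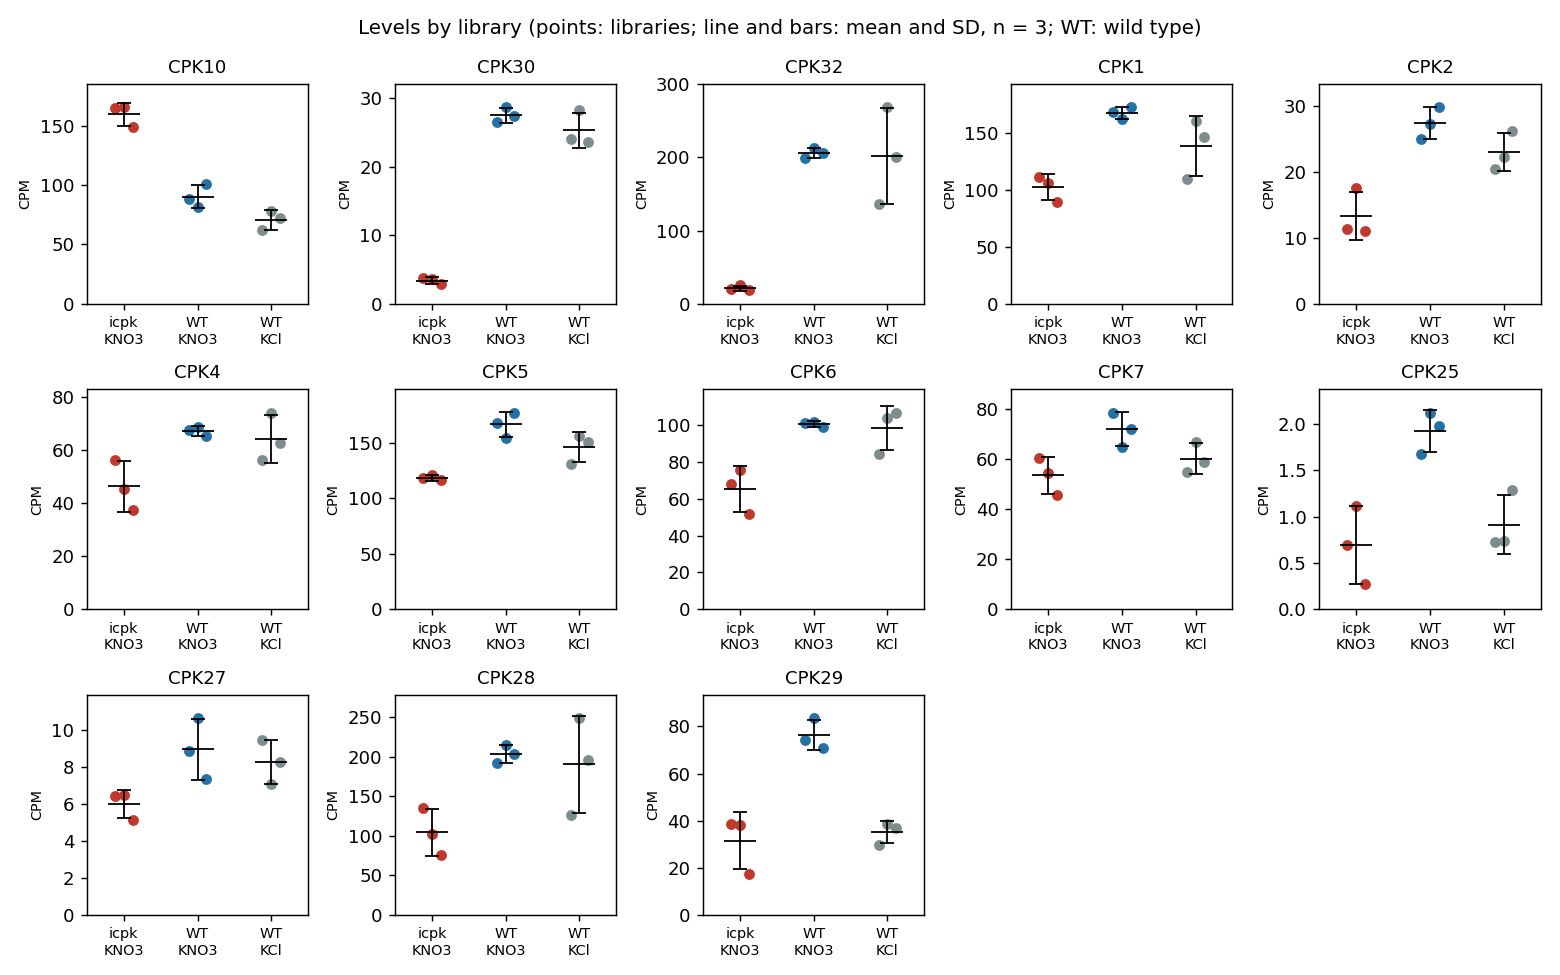
Level in CPM (vertical axes, from 0) of CPK10, CPK30, CPK32 and the other called members in each library; points are libraries, the long line is the mean and the bars are the SD of 3 libraries. The icpk points of CPK30 and CPK32 lie under 4 and under 26 CPM, and wild type with KNO3 is above both other groups for CPK29.

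The 3 kinases together made up 14.5% to 15.7% of the summed CPM of the family in icpk, against 17.9% to 18.8% in wild type with KNO3 and 16.1% to 20.7% with KCl. CPK10 alone was 12.7% to 13.7% of that sum in icpk and 4.59% to 5.68% in wild type with KNO3. CPK32 made up most of the share in wild type, 11.3% to 12.0% with KNO3, and CPK10 did so in icpk.

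Per length, the family spanned a wide range. In wild type with KNO3 the highest member was CPK3, a kinase of guard cell and stress signalling, at 92.3 ± 2.0 CPM per kilobase (SD, n = 3). CPK32 at 82.3 ± 2.7 and CPK28 at 80.5 ± 4.4 CPM per kilobase came next and did not differ beyond their spread. CPK5 at 62.8 ± 4.3 and CPK1 at 56.6 ± 1.8 followed. From CPK6 (38.0 ± 0.6) through CPK4, CPK10, CPK7 and CPK29 (30.2 ± 2.5) neighbours in the order lay within their spread. CPK30 was 16th in the order, at 13.3 ± 0.5 CPM per kilobase. The lowest tested member was CPK16, a pollen-expressed kinase of subgroup IV, at 0.444 ± 0.142 CPM per kilobase. In icpk the order began with CPK3 at 78.6 ± 4.8, CPK10 at 59.6 ± 3.6 and CPK5 at 44.6 ± 0.9 CPM per kilobase.

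**Figure D2:**
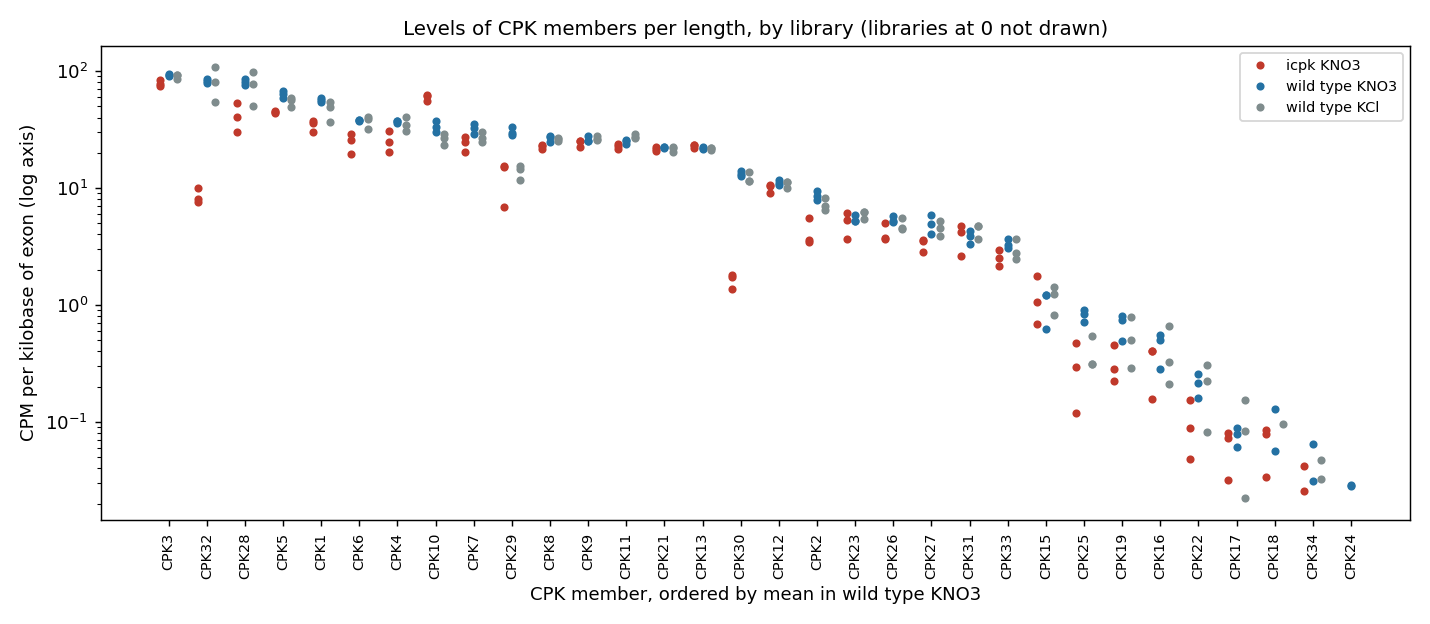
Level per length of each member in each library, in CPM per kilobase of exon on a log axis, with members ordered by their mean in wild type with KNO3. CPK32 and CPK30 in icpk stand below the other groups, CPK10 in icpk stands above them, and the members at the right end are counted by a few reads.

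The 7 members left out of the tests for low counts included several known from pollen. CPK14 and CPK20 had 0 counts in all 9 libraries, which allows a level of up to 0.146 CPM in the deepest library. CPK24 had 2 counts in all, CPK34 had 8, CPK18 had 16, CPK17 had 21 and CPK22 had 38. CPK17 and CPK34 are needed for pollen tube growth, and CPK20 and CPK24 act on channels of the pollen tube. Of a list of 10 pollen markers, 3 passed the filter on counts and none was called in either direction in the comparisons with KNO3, and the pollen pectin methylesterase gene VGDH1 was at 0 throughout. These markers summed to 37.7 to 45.4 CPM in icpk, against 47.9 to 57.6 CPM in wild type with KNO3 and 37.2 to 42.7 CPM with KCl.

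The comparison of icpk with wild type, both with KNO3, asks how the transcripts of the family stand in seedlings of the line mutated in CPK10, CPK30 and CPK32. Besides those 3, 24 members were tested. Of these, 10 were lower in icpk, none was called higher and 14 were not called. Over all 20288 genes tested, 22.7% were called, 11.4% lower and 11.3% higher. The median log2 difference was -0.39 over the 24 members and 0.01 over all genes. The difference was negative for 22 of the 24, against 49.2% of all genes, and the icpk libraries did not overlap with those of wild type for 15 of the 24, against 39.6% of all genes. Summed over the 31 members other than the 3, the family was at 1039 ± 105 CPM in icpk and 1445 ± 5 CPM in wild type with KNO3 (SD, n = 3 each). Wild type with KCl was at 1315 ± 139 CPM, its libraries running from 1164 to 1439 CPM.

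Subgroup I held most of the lower members, 6 of its 9 tested, against 11.4% of all genes called lower. CPK5 and CPK6 phosphorylate the NADPH oxidase RBOHD in immune signalling. CPK5 (AT4G35310) had 118, 121 and 116 CPM in icpk, against 168, 155 and 177 CPM in wild type with KNO3, a log2 difference of -0.49 ± 0.10 (edgeR adjusted p = 0.00713). CPK6 (AT2G17290) had 68.0, 75.8 and 51.8 CPM in icpk, against 101, 102 and 98.9 CPM, a difference of -0.62 ± 0.14 (adjusted p = 0.0110). The icpk libraries of both were below every library of wild type with KNO3, and CPK6 varied among icpk libraries more than CPK5 did.

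CPK1 and CPK2 are membrane-attached kinases and close relatives of each other. CPK1 (AT5G04870), which acts in defence, had 112, 106 and 89.8 CPM in icpk, against 168, 162 and 173 CPM in wild type with KNO3 (log2 difference -0.71 ± 0.14, edgeR adjusted p = 0.00683). CPK2 (AT3G10660) had 11.4, 17.6 and 11.1 CPM in icpk, against 25.1, 27.3 and 29.8 CPM (-1.03 ± 0.18, adjusted p = 0.00354). The mean in icpk was 61.1% of wild type for CPK1 and 48.7% for CPK2. Nearly all CPK1 transcript sequence, 99.3% of its 50-base words, is shared with the annotated gene AT5G04880 on the same strand, which has no row in the counts.

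CPK4 (AT4G09570), which promotes abscisic acid signalling together with CPK11, had 56.3, 45.1 and 37.3 CPM in icpk, against 67.5, 68.6 and 65.1 CPM in wild type with KNO3 (log2 difference -0.54 ± 0.15, edgeR adjusted p = 0.0240). CPK11 itself was not called, at 41.6 ± 1.9 CPM in icpk and 45.4 ± 2.0 CPM in wild type (SD, n = 3 each). CPK4 and CPK11 are identical at 88.0% of aligned coding bases but share under 1% of their 50-base words. CPK25 (AT2G35890), a kinase that lacks working EF hands, had 0.695, 1.11 and 0.277 CPM in icpk, against 1.68, 2.12 and 1.98 CPM in wild type with KNO3 (-1.41 ± 0.39, adjusted p = 0.0264). Its values rest on 4 to 21 reads per icpk library and 26 to 37 per library of wild type with KNO3. CPK12 and CPK26, the other tested members of subgroup I, had differences of -0.15 and -0.37 and were not called.

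In subgroup II, 2 of 10 tested members were lower, against 11.4% of all genes. Groups did not overlap for 5 of the 10, against 39.6% of all genes. CPK29 (AT1G76040), which phosphorylates PIN auxin carriers, had 38.6, 38.2 and 17.4 CPM in icpk, against 74.4, 83.5 and 71.0 CPM in wild type with KNO3. The icpk libraries lay clear of wild type, with replicate 3 the lowest, and the log2 difference was -1.28 ± 0.24 (edgeR adjusted p = 0.00570). CPK27 (AT4G04700), a kinase of salt tolerance, had 6.43, 6.45 and 5.12 CPM in icpk, against 8.85, 10.6 and 7.32 CPM (-0.57 ± 0.18, adjusted p = 0.0408). Its near copy CPK31 was at 7.16 ± 2.08 CPM in icpk and 7.17 ± 0.91 CPM in wild type (SD, n = 3 each). The guard cell kinases CPK21 and CPK23, which activate the anion channel SLAC1, had differences of -0.05 ± 0.08 and -0.11 ± 0.16. CPK3, at -0.23 ± 0.09 (adjusted p = 0.0889), and CPK19, at -1.02 ± 0.40 (adjusted p = 0.0906), were not called although their groups did not overlap. CPK9, CPK15 and CPK33 had differences of -0.11, 0.17 and -0.38 and were not called.

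Among the other members of subgroup III, 1 of 3 tested was lower, against 11.4% of all genes. CPK7 (AT5G12480), which sets the level of a root aquaporin, had 60.3, 54.6 and 45.6 CPM in icpk, against 78.6, 65.1 and 72.3 CPM in wild type with KNO3 (log2 difference -0.43 ± 0.12, edgeR adjusted p = 0.0297). Its relative CPK8, which phosphorylates catalase 3, had a difference of -0.24 ± 0.08 that missed the threshold (adjusted p = 0.0540). CPK13, a kinase that restrains stomatal opening, was at 58.0 ± 2.1 CPM in icpk and 55.5 ± 0.9 CPM in wild type (SD, n = 3 each). In subgroup IV, 1 of 2 tested members was lower, against 11.4% of all genes. CPK16 had a difference of -0.40 ± 0.45 and was not called. CPK28 (AT5G66210), which limits the immune kinase BIK1, was lower in icpk. It had 135, 102 and 75.8 CPM in icpk, against 193, 215 and 204 CPM in wild type with KNO3 (-0.97 ± 0.24, adjusted p = 0.0184). Its libraries of wild type with KCl were far apart, at 127, 249 and 196 CPM, and overlapped with icpk. Of the other untargeted members called lower, CPK1, CPK4, CPK7, CPK25 and CPK29 also overlapped between icpk and wild type with KCl. CPK2, CPK5, CPK6 and CPK27 did not, against 27.7% of all genes without overlap.

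**Figure D3:**
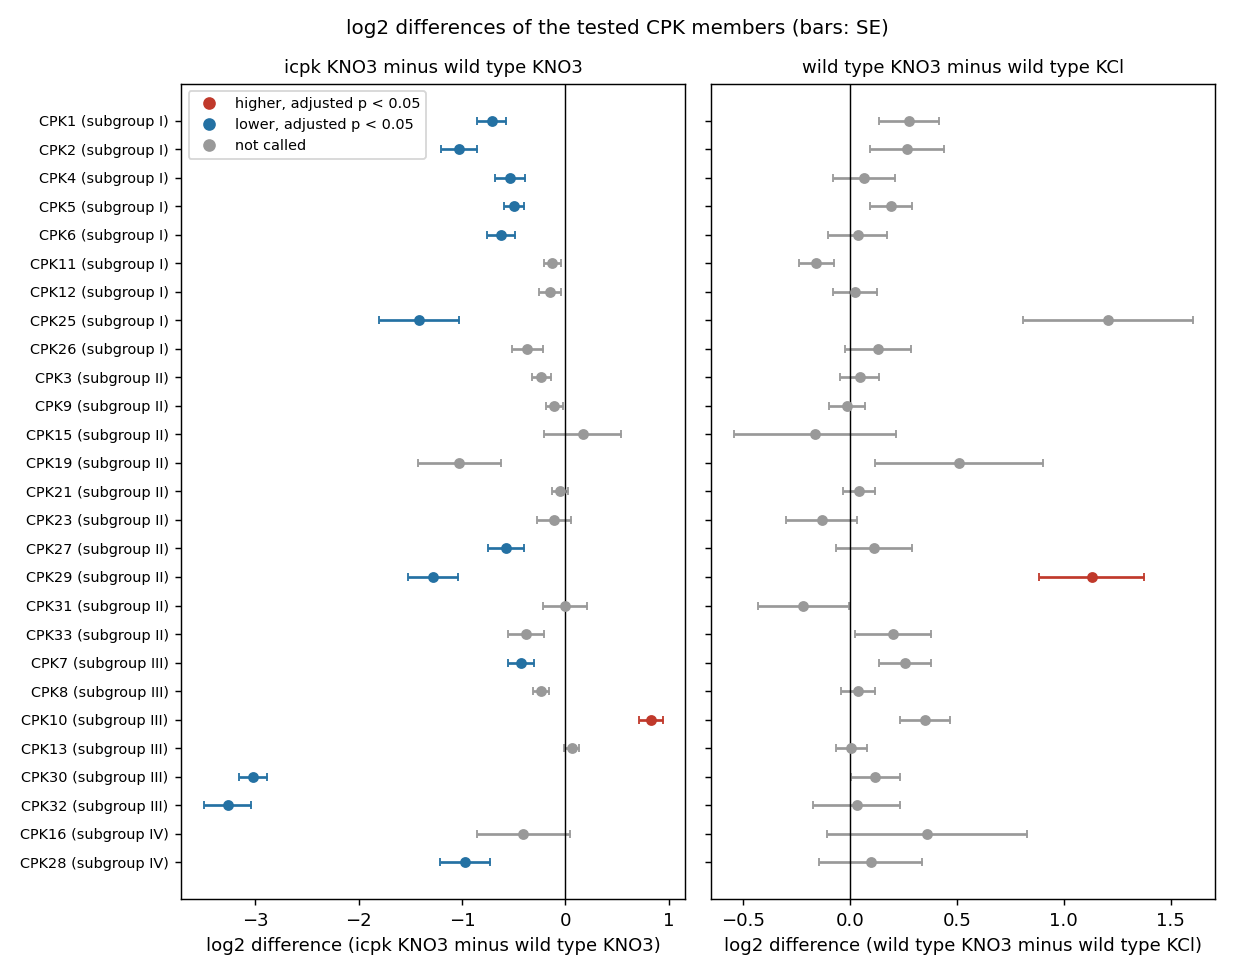
Difference on the log2 scale with its SE for each of the 27 tested members, grouped by subgroup, for icpk with KNO3 minus wild type with KNO3 (left) and wild type with KNO3 minus wild type with KCl (right); colours mark calls at an adjusted p under 0.05. On the left 12 members are called lower and CPK10 higher, and on the right CPK29 alone is called.

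These calls differed in how far they rested on single libraries. CPK2, CPK29, CPK30, CPK32 and the rise of CPK10 were called in all 16 alternative settings tried. Without icpk replicate 3, 7 members were lower, 5 of them besides CPK30 and CPK32, and 7.74% of all genes were called lower. The members no longer called were then CPK4, CPK7, CPK25, CPK27 and CPK28. The call of CPK28 was lost on leaving out that library alone (adjusted p = 0.0579), but 4 members were lost on leaving out others too. CPK4 (adjusted p 0.0509 to 0.0726) and CPK7 (0.0617 to 0.115) were each lost without any 1 of 4 libraries, icpk replicates 2 and 3 or, of wild type with KNO3, replicates 1 and 3. CPK25 (0.0581 to 0.0654) was lost without any 1 of icpk replicates 1 and 3 and the 3 libraries of wild type with KNO3. CPK27 (0.0544 to 0.128) was lost without any 1 of 6 libraries, all 3 of icpk, replicates 1 and 2 of wild type with KNO3 and replicate 3 with KCl. Over all settings the log2 difference was -0.72 to -0.42 for CPK4, -0.54 to -0.34 for CPK7, -2.02 to -1.03 for CPK25, -0.70 to -0.43 for CPK27 and -1.22 to -0.79 for CPK28. Without replicate 3 of every group, 4 were lower, namely CPK2, CPK29, CPK30 and CPK32, against 3.75% of all genes.

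Touch and rapid stress genes, a list of 12 such as TCH2 and ZAT10, were read beside the family. Their summed level was 1296, 1029 and 770.5 CPM in icpk, against 2621, 2205 and 2414 CPM in wild type with KNO3 and 1380, 2519 and 2026 CPM with KCl. Of the 11 tested, 9 were lower and 0 higher in icpk than in wild type with KNO3, against 11.4% of all genes called lower. The icpk library with the lowest sum, replicate 3, was the lowest icpk library for all 13 members drawn by library. Wild type KCl replicate 1, the wild type library with the lowest sum, was the lowest wild type library for 11 of these 13, the exceptions being CPK27 and CPK30. The 13 were drawn because they were called in these same data. How often either library was the lowest over all genes was not counted, so these counts have no baseline. The protocol washed the seedlings before treatment, and the part of handling in these levels was not tested. In wild type, 2 of the 11, CBF1 and CBF2, were higher with KNO3 than with KCl and none was called lower, against 3.56% of all genes called higher, and the list median was 0.22. The part of touch or stress in the CPK29 difference was not tested.

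**Figure D4:**
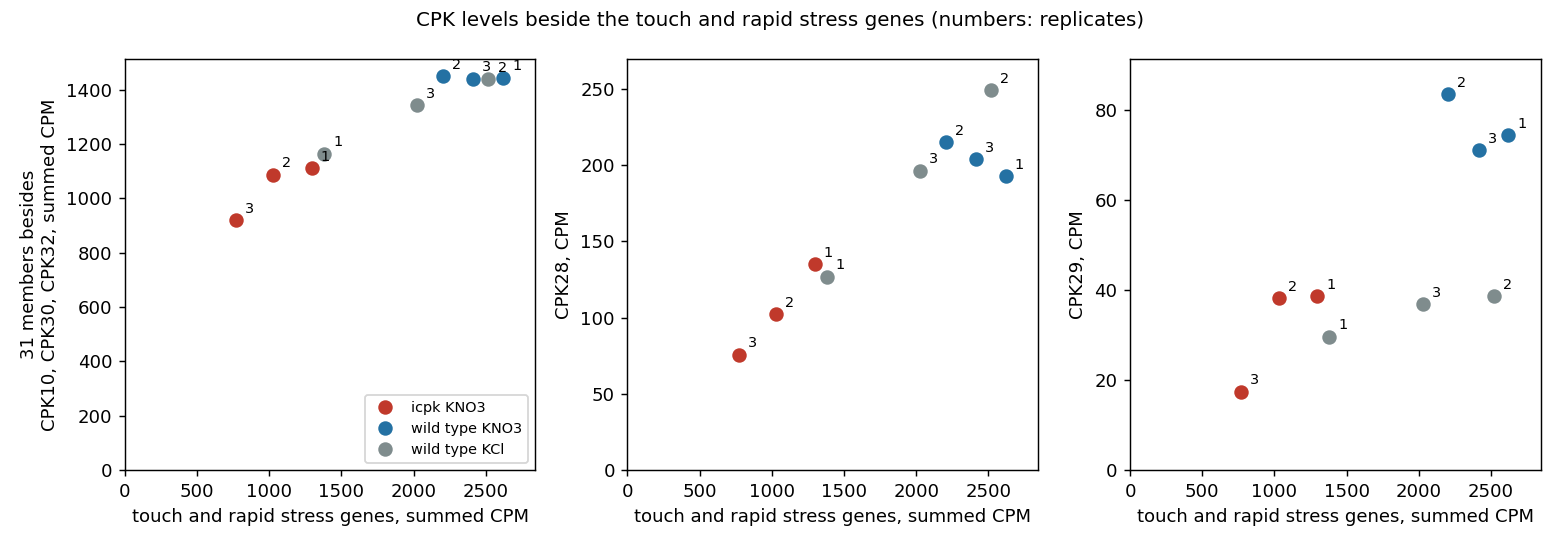
Summed CPM of the 31 members other than CPK10, CPK30 and CPK32 (left), CPM of CPK28 (middle) and CPM of CPK29 (right) against the summed CPM of 12 touch and rapid stress genes, 1 point per library with its replicate number. For the family sum and CPK28 the icpk libraries and wild type KCl replicate 1 lie at the low end together, while for CPK29 the 3 libraries of wild type with KNO3 lie above all others.

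Markers of organs were read in the same way. Shoot marker genes summed to 35708 to 54695 CPM in icpk, against 24689 to 37205 CPM in wild type with KNO3 and 41008 to 49991 CPM with KCl, and 1 of 9, CAB3, was higher in icpk than in wild type with KNO3. In wild type, CAB3 was lower with KNO3 than with KCl, the groups did not overlap for 7 of the 9, against 26.4% of all genes, and the list median was -0.58. Root markers summed to 3166 to 3998 CPM in icpk, against 2635 to 3627 CPM in wild type with KNO3 and 3836 to 4434 CPM with KCl, and 2 of 12, EXP7 and PRP3, were lower in icpk. Guard cell markers summed to 31.8 to 35.8 CPM in icpk. In wild type they summed to 28.7 to 31.7 CPM with KNO3 and 28.6 to 34.3 CPM with KCl. Of the 6, 2, MYB60 and EPF1, were higher in icpk than in wild type with KNO3. In that comparison the list's log2 differences ran from -0.26 to 1.01, with a median of 0.03. Those of the root list ran from -1.29 to 0.33 (median -0.25), and the shoot median was 0.60. Over all genes, 11.3% were called higher and 11.4% lower in icpk. With nitrate in wild type no root or guard cell marker was called. The part of organ proportions in the family's levels, CPK29 included, was not tested.

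The comparison of KNO3 with KCl in wild type asks which members responded to nitrate within 15 min. CPK29 was the 1 member called of 27, as higher, against 5.95% of all genes called, 3.56% as higher and 2.39% as lower. This count is near the share of all genes called higher, so CPK29 is given by its values and not as a result about the family. It had 74.4, 83.5 and 71.0 CPM with KNO3, against 29.6, 38.6 and 36.8 CPM with KCl, and the groups did not overlap. The mean with KNO3 was 218% of that with KCl, a log2 difference of 1.13 ± 0.24 (edgeR adjusted p = 0.0227). The call was lost without any 1 of 4 libraries. The adjusted p was 0.0716 without wild type KNO3 replicate 1 and 0.0936, 0.0635 and 0.0562 without wild type KCl replicates 1, 2 and 3. In these 4 fits 2.31% to 2.80% of all genes were called higher. The log2 difference of CPK29 was 1.01 to 1.23 over all settings. In icpk with KNO3, CPK29 was at 31.4 ± 12.1 CPM, and in wild type with KCl at 35.0 ± 4.7 CPM (SD, n = 3 each).

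The other 23 untargeted members were not called with nitrate. Together with CPK29 their median log2 difference was 0.08, and 19 of the 24 differences were positive, whereas 53.6% of all genes had a negative one. Groups did not overlap for 4 of the 24, against 26.4% of all genes, and an unadjusted p under 0.05 was reached by 2 of the 24, CPK29 and CPK25. CPK25 had 1.68, 2.12 and 1.98 CPM with KNO3, against 0.729, 0.734 and 1.28 CPM with KCl (1.21 ± 0.40, edgeR adjusted p = 0.110), and it passed the threshold in a fit of these 6 libraries alone (adjusted p = 0.0479). The lowest difference was that of CPK31, at -0.22 ± 0.21. Of the 3 kinases that icpk lacks or alters, CPK10 had a difference of 0.35 ± 0.12 (adjusted p = 0.111) with groups that did not overlap, CPK30 one of 0.12 ± 0.11 and CPK32 one of 0.03 ± 0.20. DESeq2 and limma voom also called no member lower, and an unadjusted p under 0.05 with a negative difference was reached by none of the 24.

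The sequence before the start of CPK29 was read because it was the member called in both comparisons. Both use the same 3 libraries of wild type with KNO3, so these calls are not independent. Promoters were taken as 250 bases before and 50 after the annotated start of the gene in TAIR10.1, and motifs were searched on both strands. The CGCG box, CGCGT, to which the calmodulin-binding CAMTA factors bind, occurred in 4 of 34 members (CPK6, CPK21, CPK29 and CPK33), against 8.70% of 27443 promoters. In CPK29 it lies 220 bases before the start. The stretch chr1:28537346-28537405 (plus strand, TAIR10.1, RefSeq) is printed with the 6 bases that read as CGCGT on both strands in capitals.
CPK29 upstream stretch: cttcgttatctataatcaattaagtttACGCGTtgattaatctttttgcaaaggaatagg
The W box core TTGAC, read by WRKY factors, occurred in 19 of 34 members against 50.5% of all promoters, and the abscisic acid element core ACGTG in 2 of 34, CPK19 and CPK25, against 26.7%. A match describes these letters only, and 100 of the 300 bases of the CPK29 window were not analysed here.

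Setting icpk with KNO3 beside wild type with KCl pools genotype and nitrate, and its libraries are those of the comparisons above. Besides CPK30 (-2.90 ± 0.13), CPK32 (-3.24 ± 0.23) and CPK10 (1.18 ± 0.12), 2 of 24 members were called, both lower. Groups did not overlap for 8 of the 24, against 27.7% of all genes. The called members were CPK2 (-0.76 ± 0.18, edgeR adjusted p = 0.0294) and CPK6 (-0.59 ± 0.14, adjusted p = 0.0311). Over all genes 6.99% were called, 3.84% as lower and 3.15% as higher. CPK28 had a difference of -0.87 ± 0.24 (adjusted p = 0.0599) and CPK29 one of -0.15 ± 0.25 (adjusted p = 0.777). The call of CPK6 was lost without icpk replicate 1 or 3, wild type KNO3 replicate 1 or wild type KCl replicate 2 or 3 (adjusted p 0.0540 to 0.116). That of CPK2 was lost without icpk replicate 1 or 3 or wild type KCl replicate 2 or 3 (0.0834 to 0.101).

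Relatives of the CPKs that lack a working calcium-binding domain were read beside the family, as 12 genes that were all tested. With KNO3 in wild type 3 of them were higher than with KCl and none was called lower, against 3.56% and 2.39% of all genes. PPCK2 and PPCK1, which phosphorylate phosphoenolpyruvate carboxylase, had log2 differences of 2.35 ± 0.17 and 2.18 ± 0.13 (edgeR adjusted p = 1.59e-05 and 3.44e-06), and PEPRK1 one of 0.80 ± 0.12. In icpk with KNO3, 4 of the 12 were lower than in wild type with KNO3, against 11.4% of all genes. These were PPCK2 (25.7 ± 1.1 against 47.0 ± 11.6 CPM, SD, n = 3 each) and PPCK1 (37.0 ± 5.4 against 55.1 ± 4.0 CPM). The others were PEPRK1 (66.3 ± 7.7 against 93.8 ± 4.1 CPM) and CRK6 (5.69 ± 0.50 against 7.98 ± 0.46 CPM). Both comparisons use the same 3 libraries of wild type with KNO3, so their calls are not independent. The other CRK genes, whose products resemble CPKs, were not called in either comparison. The list's median difference was -0.06 in icpk and 0.09 with nitrate.

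Genes for known CPK substrates and partners were tested as 25 of a list of 26. In icpk, 3 were higher than in wild type with KNO3 and 3 lower, with a list median of -0.19. The 6 called of 25 are a share near the 22.7% of all genes called in this comparison, so the genes below are given as values only. ORE1, a transcription factor of senescence, was at 23.9 ± 1.1 CPM in icpk and 9.32 ± 1.68 CPM in wild type with KNO3 (1.36 ± 0.27, edgeR adjusted p = 0.00726). NIP1;1, an aquaporin-like channel, was at 26.7 ± 7.9 CPM in icpk and 59.0 ± 17.97 CPM in wild type (-1.14 ± 0.24, adjusted p = 0.00879). ABF4, a factor of abscisic acid responses, was higher, with a difference of 0.36 ± 0.08, and RBOHD was lower, with one of -0.68 ± 0.17. KAT2 and GORK, both potassium channel genes, were the remaining higher and lower gene. With KNO3 in wild type, ABI2 was higher than with KCl (0.64 ± 0.16), and NLP6 (-0.35 ± 0.08) and ORE1 (-1.16 ± 0.27) were lower. NLP7 itself was not called, at -0.27 ± 0.10 in icpk (adjusted p = 0.0873) and 0.37 ± 0.10 with KNO3 in wild type (adjusted p = 0.0690).

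The authors' deposited table for icpk against wild type with KNO3 calls 1 member higher and 14 lower at an adjusted p under 0.05. In the authors' deposited table these are the 12 named above with CPK3 at a log2 fold change of -0.24 (adjusted p = 0.0209) and CPK8 at -0.24 (adjusted p = 0.0124). The authors' deposited table for KNO3 against KCl in wild type calls CPK29 higher, at 0.91 (adjusted p = 0.00826), and no member lower. The share of all genes called in the authors' comparisons was not counted, so these member counts have no baseline.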

How the data were processed

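RNA-seq of 9 libraries, 3 per group, was read as tables of counts per gene that the authors deposited as raw whole numbers. Per the submitters' processing notes the tools were TopHat, HTSeq and DESeq2 with the build TAIR10; no version or counting setting is given in the sources used. A further 2 tables that the authors deposited hold their comparisons, with a base mean signal, a log2 fold change, a test score and p-values, per the file headers; these are quoted only where named. Rows that name no gene, 26.7% to 84.3% of records per library, were left out.

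Counts were tested with edgeR 4.0.16 in R 4.3.3 (TMM scaling, filterByExpr with a minimum count of 10, quasi-likelihood F-test, all 9 libraries in 1 model of group means), and p-values were adjusted by Benjamini-Hochberg over all 20288 genes tested; a call is an adjusted p under 0.05. SE is the absolute log2 difference divided by the square root of F. Alternatives used DESeq2 1.42.0, limma 3.58.1 (voom) and the settings described at the end. On simulated counts for icpk against wild type with KNO3, 72.7% of genes changed by 1 on the log2 scale and 95.9% of those changed by 2 were recovered. These were 99 and 98 genes, and 12 unchanged genes were called. Since 22.7% of all genes were called in the data, recovery there may differ. Changes smaller than 1 were not simulated. Whether replicate numbers in the titles pair libraries was not established. Deviations from the group means across genes correlated at 0.179, 0.123 and 0.312 between icpk and wild type libraries with KNO3 of the same number. Different numbers gave -0.201 to 0.078 there. Between wild type with KNO3 and with KCl, same numbers gave -0.036, 0.158 and 0.300, and different numbers -0.317 to 0.230. Between icpk and wild type with KCl, same numbers gave -0.222, -0.097 and 0.102, and 1 pair of different numbers gave 0.313. A replicate block was therefore run as an alternative only.

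Gene models, coding sequence and promoters came from RefSeq TAIR10.1, in which all 34 members were matched by identifier. The members and the gene lists were chosen with earlier results of these data known, so the counts over lists describe and do not test. Named genes are all members, those called with a value in every library, and up to 4 called genes with the lowest p from the lists of relatives and of substrates per comparison, to which the remaining called genes of these lists were added after their values were seen. The floor of 3 counts covers counting error only.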

Additional observations from a re-analysis of the deposited data

How the results depend on the processing

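The 16 alternatives were DESeq2, RLE factors, limma voom, no filter, a replicate block, the 6 libraries of a comparison alone, each library left out in turn, and all replicates numbered 3 left out. No called member changed its sign under any of them. For icpk against wild type with KNO3, 12 members were lower, against 11.4% of all genes. Leaving out 1 library gave 7 to 12, against 6.73% to 10.8% of all genes. Leaving out replicate 3 of every group gave 4, against 3.75%, with fewer samples in the fit. The replicate block treats libraries of the same number as paired. With it 12 were lower and 1 higher, against 11.7% and 11.8% of all genes, and no call of a member changed. For KNO3 against KCl in wild type, 1 member was higher, against 3.56% of all genes. The fit of 6 libraries gave 2, against 3.79%, and leaving out 1 library gave 0 to 2, against 2.31% to 4.14%. Between icpk with KNO3 and wild type given KCl, 4 were lower, against 3.84% of all genes. DESeq2 gave 7, against 5.35%, and the 6 libraries 2, against 3.34%. Leaving out 1 library gave 2 to 6, against 1.64% to 4.69%, and leaving out replicate 3 of every group 2, against 0.951%. The cause of these shifts was not tested. Over all genes, calls lower with KNO3 than KCl numbered 485, 821 with DESeq2 and 125 to 1231 with 1 library left out, and calls lower in icpk than in wild type with KNO3 numbered 2313, and 765 without replicate 3 of every group. Depth limits CPK25, CPK19 and CPK16, with under 40 reads in each library, and the 7 members not tested.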
